A study of Mus musculus with 5 samples.

Results

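The gene model over a miR-9 hairpin and the transcripts that host the 3 mouse miR-9 hairpins were examined in bone marrow-cultured mast cells. The 4 rows were taken from the authors' deposited table by symbol, out of 25549 rows: Gm25641, a gene model over the Mir9-1 hairpin, and the hosts Gm3764 (Mir9-1), AI854517 (Mir9-3) and C130071C03Rik (Mir9-2). All 4 symbols occurred once in the table, and all 4 rows had a p-value. The cells were mast cells grown from the bone marrow of C57BL/6 mice in medium with recombinant interleukin-3 for 6 to 8 weeks. The only further treatment that the labels give was heparinase, 40 U for 2 hours for each sample. Cpa3-Cre;miR-9∆fl/∆fl mice, called the miR-9 line below, gave 3 samples, and Cpa3-Cre mice gave 2. Both genotypes carry Cpa3-Cre, which expresses Cre recombinase from the promoter of Cpa3, the gene of the mast cell carboxypeptidase. The labels do not say whether recombination of the miR-9∆fl allele adds or removes miR-9, and the age of the mice, which the labels call matched for age and sex, was not stated. The labels do not tell whether the samples of a genotype came from separate mice, so p-values measure only the spread among the samples, which may be technical. Per the labels, ribosomal RNA was removed from total RNA, and strand-marked libraries were sequenced from both fragment ends with 50-base reads, about 70000000 for each sample.

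MicroRNAs are short RNAs that lower the output of messenger RNAs whose 3' untranslated regions pair with the seed, bases 2 to 8 of the microRNA. A long primary transcript is cut in the nucleus by Drosha and Dgcr8 to release a hairpin, which Xpo5 exports and Dicer1 trims to a duplex that an Argonaute protein takes up. miR-9 is best known from the nervous system, where it is abundant in neural progenitors and neurons and is made from separate long noncoding host transcripts.

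The mature microRNAs are shown because the locus carries hairpins on both strands and their seeds differ. Capitals mark the seed, and the sequences are those of RefSeq for GRCm38.p6. RefSeq gives the same miR-9-5p and the same miR-9-3p for Mir9-1, Mir9-2 and Mir9-3, and names Gm25641 as the hairpin of miR-9b on the opposite strand of Mir9-1. It also gives miR-9b-3p for Gm51268 and Gm51285, and miR-9b-5p for Gm51285. The Gm51268 hairpin lies on the opposite strand of Mir9-2, so an antisense hairpin is not particular to Mir9-1.
miR-9-5p: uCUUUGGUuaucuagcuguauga
miR-9-3p: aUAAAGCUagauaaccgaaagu
miR-9b-5p: uUCGGUUAucuagcuuuauga
miR-9b-3p: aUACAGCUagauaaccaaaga
No seed is shared among these 4 arms. miR-9b-3p is the exact reverse complement of a stretch of miR-9-5p. Aligned arm by arm, miR-9b-5p matched miR-9-5p in 19 of 23 positions, and miR-9b-3p matched miR-9-3p in 19 of 22.

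The hairpins are shown with the mature arms in capitals, since the bases outside the arms are what sets the loci apart in sequencing reads. The first 3 lie on the plus strands of chromosomes 3, 13 and 7, and the gene model lies on the minus strand of chromosome 3. In the gene model, taken from GENCODE M21, capitals mark the reverse complements of miR-9-3p and miR-9-5p.
Mir9-1 (GRCm38.p6, chr3:88215598-88215686, plus): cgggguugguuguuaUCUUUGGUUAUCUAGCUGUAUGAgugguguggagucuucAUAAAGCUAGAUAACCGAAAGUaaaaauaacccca
Mir9-2 (GRCm38.p6, chr13:83738814-83738885, plus): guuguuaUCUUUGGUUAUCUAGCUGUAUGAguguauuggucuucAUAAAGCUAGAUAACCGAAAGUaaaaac
Mir9-3 (GRCm38.p6, chr7:79505264-79505353, plus): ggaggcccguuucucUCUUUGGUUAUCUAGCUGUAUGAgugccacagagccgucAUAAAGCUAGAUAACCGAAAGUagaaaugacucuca
Gm25641 gene model (GRCm38, chr3:88215589-88215696, minus): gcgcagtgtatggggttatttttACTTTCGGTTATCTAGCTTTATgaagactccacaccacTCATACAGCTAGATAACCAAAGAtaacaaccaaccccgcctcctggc
Mir9-1 and Mir9-2 were identical in 70 of 89 alignment columns, Mir9-1 and Mir9-3 in 71 of 90, and Mir9-2 and Mir9-3 in 64 of 90. The reverse complement of the whole Mir9-1 hairpin lies inside the 108-base gene model, which adds 19 bases to the 89 of the hairpin. Apart from Mir9-1 itself, the longest run that the gene model shared on either strand with any other GENCODE M21 transcript was 33 bases, with the Mir9-2 hairpin and its host C130071C03Rik. The longest run shared with Mir9-3 was 26 bases. A full 50-base read without mismatches from either of those hairpins therefore does not match the Gm25641 model. Folded with ViennaRNA, the Mir9-1 hairpin had a predicted minimum free energy of -41 kcal/mol with 68 of 89 bases paired, and its reverse complement had -33.7 kcal/mol with 60 of 89 paired.

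The hairpins sit differently in their hosts. Gm3764 spans 88206813 to 88229959 on the plus strand of chromosome 3 with 12 exons in the deposited table, and the Mir9-1 hairpin lies in the intron between exons 3 and 4, 930 bases after one and 5269 before the other. Gm25641 overlaps no exon of Gm3764 and lies antisense to it. AI854517, which RefSeq calls Mir9-3hg, spans 79500026 to 79534403 on the plus strand of chromosome 7 with 6 exons, and the Mir9-3 hairpin lies in the intron between exons 1 and 2, 5013 bases after the first exon. C130071C03Rik spans 83721381 to 83741308 on the plus strand of chromosome 13 with 6 exons, and the Mir9-2 hairpin lies in exon 6. Reads from that hairpin can therefore fall in the C130071C03Rik row, where the hairpin takes up 72 of 4919 exon bases, but reads from the other hairpins fall outside the exons of their hosts. No source used here states whether strand was used in counting, so reads of Mir9-1 and of the antisense miR-9b hairpin cannot be told apart in the Gm25641 row. Reads of 50 bases from ribosome-depleted total RNA do not measure the mature microRNAs.

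**Figure D1:**
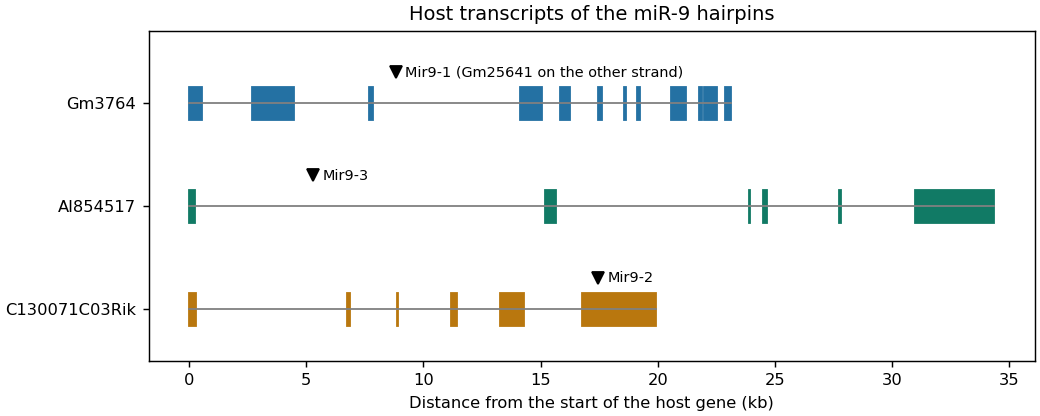
Exons (boxes) and introns (lines) of the 3 host transcripts as the deposited table gives them, by distance from the start of each host gene in kb. Black triangles mark the hairpins: Mir9-1 and Mir9-3 lie in introns of Gm3764 and AI854517, and Mir9-2 lies in the last exon of C130071C03Rik.

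Gm25641 was the sole row of the 4 to pass the test, and it was far higher in the miR-9 line. By the authors' deposited table its log2 fold change was 4.50, a 22.6-fold higher value in the miR-9 line than in Cpa3-Cre cells, with p = 3.63e-22 and a Benjamini-Hochberg adjusted p of 8.74e-18 over the 24071 rows with a p-value. Of these rows 0.411% passed at an adjusted p under 0.05, in either direction, and 0.245% passed as higher. Gm25641 had both the highest log2 fold change and the smallest p-value of the table. Whether the reads in the Gm25641 row came from the Mir9-1 locus itself or from the miR-9∆fl allele was not tested. The next highest fold change by the authors' deposited table was that of Tpsg1, the gene of the transmembrane tryptase, at 2.58 or 5.96-fold. The next smallest p-value in the authors' deposited table was that of Galc, the lysosomal galactosylceramidase gene, at 8.35e-13.

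Other short rows lay far below Gm25641, which has 108 bases. The table held 1550 rows of at most 200 bases, of which 1523 had a p-value. Of these 1523 rows 2 passed, where 0.411% of all rows did. Besides Gm25641 the other was Gm25360 of 191 bases, at 1.14 on the log2 scale by the authors' deposited table (adjusted p = 0.0365). The other short rows lay between -1.19 and 1.27 by the authors' deposited table, around a median of -0.03.

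**Figure D2:**
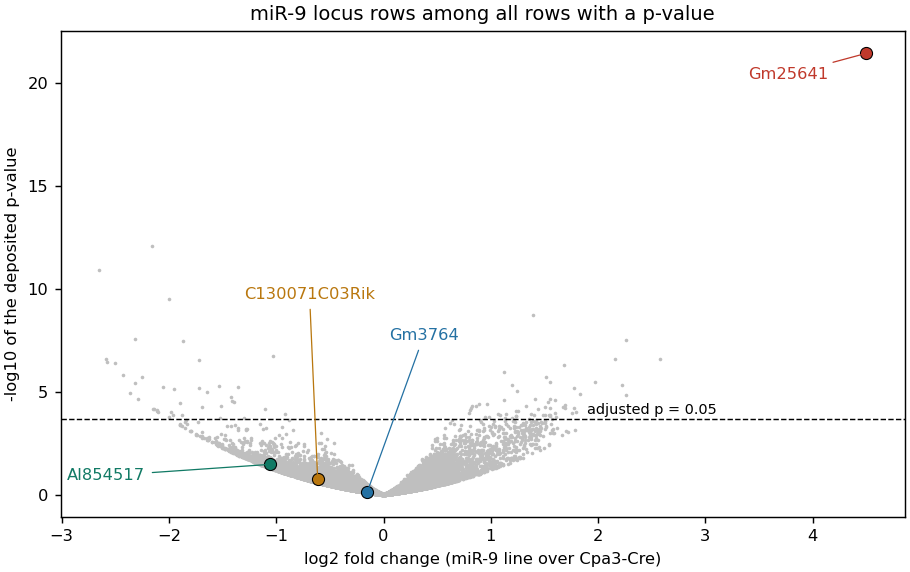
Log2 fold change, miR-9 line over Cpa3-Cre (horizontal) against -log10 of the deposited p-value (vertical) for the 24071 rows with a p-value (grey points), with the 4 miR-9 locus rows in colour. Gm25641 stands alone at a log2 fold change of 4.50, and the 3 hosts lie under the dashed line, the largest p-value that kept an adjusted p under 0.05.

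The 3 host transcripts all had negative log2 fold changes, and none passed the test. Gm3764, whose intron holds the Mir9-1 hairpin, stood at -0.15 in the authors' deposited table, or 1.11-fold lower in the miR-9 line than in Cpa3-Cre cells (p = 0.771, adjusted p = 0.974). The difference between Gm25641 and Gm3764, the model and the host of the same hairpin, was 4.65 on the log2 scale, computed from the authors' deposited table. AI854517, the host of Mir9-3, stood at -1.06, or 2.09-fold lower (p = 0.0339, adjusted p = 0.553 computed from the authors' deposited table). C130071C03Rik, the host of Mir9-2, stood at -0.61, or 1.53-fold lower (p = 0.168, adjusted p = 0.799 computed from the authors' deposited table). An unadjusted p under 0.05 with a negative value, which AI854517 alone of the hosts had, was found in 4.05% of all rows with a p-value. Negative values as such were common, with 59.8% of those rows below 0 and a median of -0.09.

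Another 5 columns of the table give values per library, but their names match no sample's labels, so the levels of the hosts in each sample were not analysed here. A host that was scarce in these mast cells and a host that was expressed but equal in both genotypes therefore had to be compared by the precision of the deposited values alone. If a deposited p-value is the two-sided normal (Wald) p-value of its log2 fold change, which the sources used here do not state, dividing the fold change by the matching normal quantile gives its standard error, called the implied standard error here. A row can have a large implied standard error because it has few reads or because its samples differ, and these cannot be told apart without levels. Over the 24071 rows the implied standard error ran from 0.123 to 0.540 with a median of 0.396, and 24.3% of rows were over 0.5. It piled up below that highest value and never passed it. As background, fold changes shrunken towards 0 by a normal prior have standard errors no larger than the spread of the prior, so rows near such a ceiling carry little information of their own; no source used here states whether the deposited fold changes were shrunken.

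By this measure all 3 hosts were less precise than the median row, at 0.396, by differing margins. Gm3764 had an implied standard error of 0.524, exceeded by 14.7% of rows. AI854517 had 0.501, exceeded by 24.1%, and C130071C03Rik had 0.445, exceeded by 39.3%. Gm25641 had 0.465, in the same range, with a larger fold change. The implied 95% intervals, without adjustment for the number of rows, were 3.59 to 5.41 for Gm25641, -1.18 to 0.87 for Gm3764, -2.04 to -0.08 for AI854517 and -1.49 to 0.26 for C130071C03Rik, all on the log2 scale. The interval of Gm25641 overlapped none of the other 3, and those 3 overlapped one another. The interval of Gm3764 took in a change of 1 log2 unit downwards and nearly that upwards, so the deposited values do not show that Gm3764 was unchanged.

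**Figure D3:**
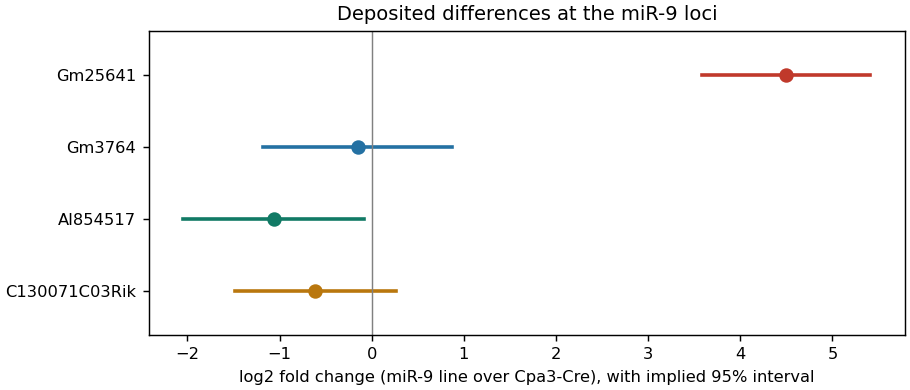
Deposited log2 fold change (miR-9 line over Cpa3-Cre) for the 4 rows (points) with the implied 95% interval (lines), which assumes that the p-values are two-sided normal ones. The line of Gm25641 runs from 3.59 to 5.41, and those of Gm3764 and C130071C03Rik cross 0.

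The same measure gives the observed fold change that each host needed to pass. The largest deposited p-value with an adjusted p under 0.05 was 0.000205. At its own implied standard error, Gm3764 would have passed from an observed log2 fold change of 1.95 in either direction (3.85-fold), AI854517 from 1.86 (3.63-fold) and C130071C03Rik from 1.65 (3.15-fold). Among rows whose implied standard error lay within 0.02 of that of AI854517, 10 of 3315 passed, and their median log2 fold change was -0.32. AI854517 was lower than all but 144 of those 3315 rows. Of the 2236 rows as close to C130071C03Rik, 388 were lower than it, and of the 5503 rows as close to Gm3764, 3403 were lower. The medians of the rows as close to C130071C03Rik and to Gm3764 were -0.27 and -0.31, against -0.09 over all rows, and C130071C03Rik and Gm3764 lay well within their spread.

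Genes of the nervous system, where miR-9 is abundant, had implied standard errors like those of the hosts. The 6 neural markers (Nes, Sox2, Pax6, Tubb3, Map2 and Dcx) ran from 0.410 to 0.537. None of the 6 passed, where 0.411% of all rows did. Of the 6, 5 were negative by the authors' deposited table, where 59.8% of all rows were, and the median of all 6 was -0.59, where rows as close in implied standard error to the hosts had medians of -0.27 to -0.32. An unadjusted p under 0.05 with a negative value, found in 4.05% of all rows, was seen in 2 of the 6. Map2, a microtubule protein gene of neurons, stood at -1.22 (p = 0.0226) and Pax6, a transcription factor of neural progenitors, at -0.81 (p = 0.0477), with adjusted p-values of 0.483 for Map2 and 0.622 for Pax6 from the authors' deposited table. Broadly expressed genes of microRNA processing ran from 0.148 to 0.286. Markers of the mast cell itself spread from 0.225 for Mitf to 0.539 for the chymase gene Mcpt4, with 0.502 for the histidine decarboxylase gene Hdc.

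**Figure D4:**
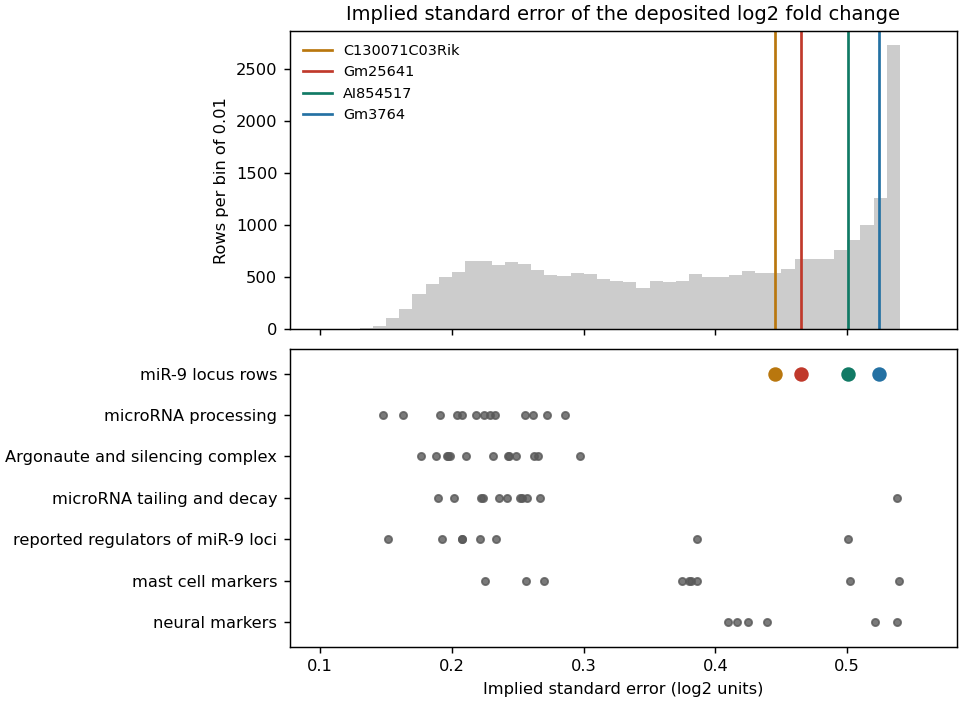
Top, histogram of the implied standard error (log2 units) over the 24071 rows, in bins of 0.01, with lines at the 4 miR-9 locus rows. Bottom, the same measure for each gene of 6 lists. The hosts lie between 0.445 and 0.524, beyond every microRNA processing gene. They lie within the ranges of the neural markers, the mast cell markers and the tailing and decay genes.

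The machinery that makes and uses microRNAs did not pass the test in any member. Of 38 genes listed, 37 had a p-value, none passed at an adjusted p under 0.05, where 0.411% of all rows did, and 2 had an unadjusted p under 0.05 (5.41%), where 7.92% of all rows did. All 13 genes of microRNA processing had a p-value, with a median log2 fold change of 0.19 by the authors' deposited table, against -0.09 over all rows. The median differed with precision, since rows close to the hosts in implied standard error had medians of -0.27 to -0.32. Rows as precise as these 13 genes were not compared. The nuclear ribonuclease gene Drosha stood at 0.13 and its partner Dgcr8 at 0.18, the export receptor gene Xpo5 at 0.19 and the cytoplasmic ribonuclease gene Dicer1 at 0.23, in the authors' deposited table. Their implied standard errors were 0.261, 0.208, 0.162 and 0.255, so each value was smaller than its own error or little above it. The highest of the list was Ran, the GTPase that drives nuclear transport, at 0.71 (p = 0.00206, adjusted p = 0.150), and the lowest was the helicase gene Ddx5 at -0.23 in the authors' deposited table. Prkra, a Dicer partner, stood at 0.54 (p = 0.0485, adjusted p = 0.625 computed from the authors' deposited table).

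The 13 genes of Argonaute proteins and the silencing complex had a median of 0.07 in the authors' deposited table. Ago2, the Argonaute with slicing activity, stood at 0.38 (p = 0.115, adjusted p = 0.748 computed from the authors' deposited table). Ago1 was highest at 0.46 and Pan2, a deadenylase subunit gene, lowest at -0.19 in the authors' deposited table. Of the 12 tailing and decay genes 11 had a p-value, with a median of 0.09, from Lin28b at -0.86 (p = 0.108) to the exonuclease gene Dis3l2 at 0.22 in the authors' deposited table. Lin28b and Lin28a encode RNA-binding proteins that block let-7 maturation; Lin28a was the gene without a p-value.

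Transcription factors that have been reported to act on miR-9 loci in human or mouse cells also did not pass. None of the 8 genes passed, where 0.411% of all rows did. An unadjusted p under 0.05 was found for 2 of the 8, where 7.92% of all rows had one. The median of the 8 was -0.05 by the authors' deposited table. Myc, a growth-promoting factor, was highest at 0.55 (p = 0.0122, adjusted p = 0.376) and Nr2e1, a nuclear receptor of neural stem cells, lowest at -0.48 (p = 0.335, adjusted p = 0.882), from the authors' deposited table. Nfkb1, an NF-kB subunit gene, stood at -0.46 (p = 0.0489, adjusted p = 0.625) and Rest, a repressor of neuronal genes, at 0.04 (p = 0.865, adjusted p = 0.986), from the authors' deposited table.

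No gene around the hairpins passed the test. Within 500 kb of the 3 hairpins lay 72 other rows, 71 with a p-value, none of them at an adjusted p under 0.05. An unadjusted p under 0.05 was found in 7 of the 71 (9.86%), where 7.92% of all rows had one. Around Mir9-1, 19 of 46 rows were positive by the authors' deposited table, and the median was -0.08. Over all rows with a p-value 40.2% were positive, and the median was -0.09. The nearest row outside the host on one side was AI849053, 11.0 kb from the hairpin, at -0.57 (p = 0.273), and on the other side Rhbg, an ammonium transporter gene 27.2 kb away, at 0.32 (p = 0.525), in the authors' deposited table. Nes, the nestin gene of neural progenitors, also lies in this window and did not pass. The 4 rows there with an unadjusted p under 0.05 were named after their values were seen. They were Iqgap3, a scaffold protein gene, at 1.22, Pmf1, a kinetochore gene, at 0.72, Gpatch4 at 0.60 and Hdgf, a growth factor gene, at 0.57, all 4 positive in the authors' deposited table and at adjusted p-values of 0.167 to 0.473.

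Around Mir9-3, 7 of 22 rows were positive by the authors' deposited table, where 40.2% of all rows with a p-value were. The median was -0.14, against -0.09 over all those rows. The nearest row on one side was Polg, the mitochondrial DNA polymerase gene, 38.9 kb away at 0.36 (p = 0.193), and on the other side Rhcg, an ammonium transporter gene, 88.0 kb away at -0.30 (p = 0.541), in the authors' deposited table. AI854517 at -1.06 was thus lower than both. Ticrr, a gene of DNA replication initiation 155 kb from the hairpin, came closest to passing, at 1.30 (p = 0.000774, adjusted p = 0.0886 computed from the authors' deposited table). The other rows there with an unadjusted p under 0.05 were Fanci, a DNA repair gene 55.0 kb away, at 0.61 (p = 0.0239, adjusted p = 0.490), and Pex11a, a peroxisome gene 231 kb away, at -0.88 (p = 0.0283, adjusted p = 0.521), in the authors' deposited table, and were named after their values were seen. Few genes lie around Mir9-2. Of 4 rows within 500 kb 3 had a p-value, and the nearest of them, Gm24331, lay 443 kb away at 0.05 (p = 0.927) in the authors' deposited table. Mef2c, a transcription factor gene 71.7 kb from the hairpin, had no p-value.

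**Figure D5:**
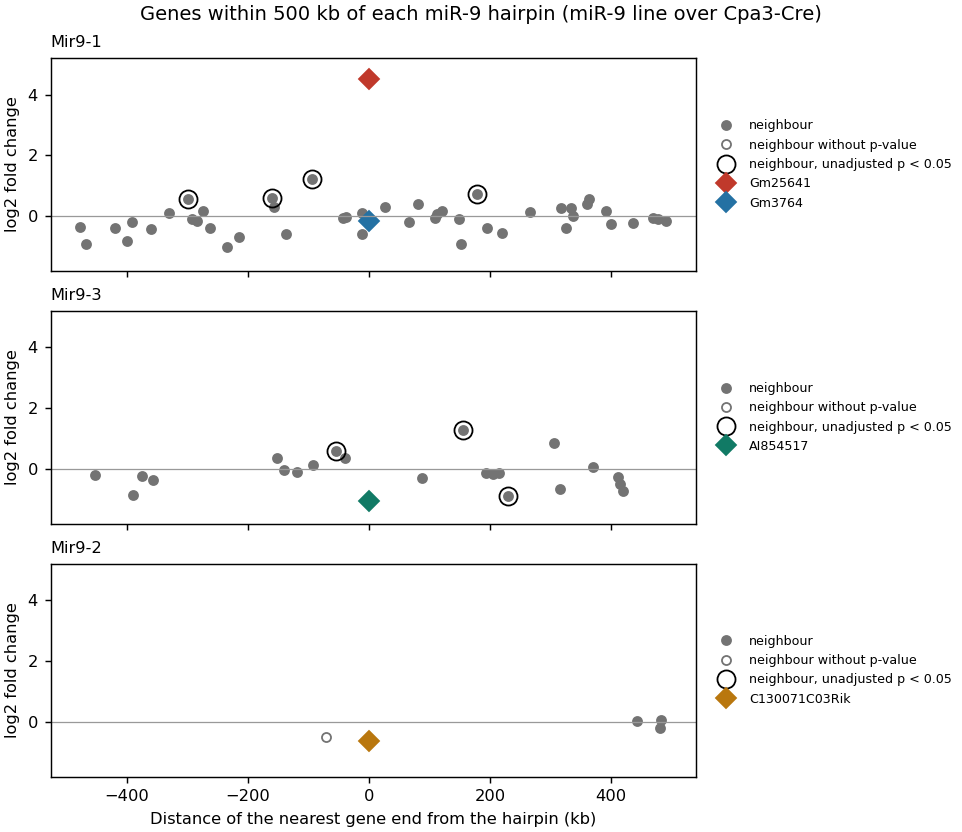
Deposited log2 fold change (miR-9 line over Cpa3-Cre) for each row within 500 kb of a hairpin, by the distance in kb of its nearest end from the hairpin; diamonds at 0 kb are the miR-9 locus rows, and rings mark an unadjusted p under 0.05. Gm25641 at 4.50 stands above all other rows, of which Ticrr is highest at 1.30.

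Levels per sample were not used, so the cell type was checked by fold changes and missing p-values alone. All 9 mast cell markers had a p-value, and 1 of them passed, where 0.411% of all rows did. That was Tpsb2, a tryptase gene, higher in the miR-9 line at 1.60 (adjusted p = 0.0149) by the authors' deposited table. None of the 6 neutrophil, 4 monocyte and macrophage and 3 eosinophil markers had a p-value, and neither did 2 of 3 basophil markers. These rows still had fold changes, from -0.71 for the macrophage marker Emr1 to 0.52 for the basophil marker Prss34. Many lay closer to 0. The neutrophil markers other than Mpo (-0.47) lay between -0.017 and -0.0007, and the eosinophil markers Epx and Prg2 stood at -0.0012 and -0.0003. A missing p-value alone is thus not a sign of absence. Why the p-values were missing was not tested, so these markers do not show whether other myeloid cells were present. An empty p-value was found in 1478 of all 25549 rows.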

How the data were processed

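One table of 25549 gene models was used. The submitters' processing notes name GRCm38, mm10, STAR, HTSeq, Cuffdiff, DESeq and DESeq2; no source used here gives versions, filters, model formula, strand setting or shrinkage. Per the file headers, the authors' deposited values were a log2 fold change, a signed linear fold score and a p-value (24071 rows), each comparing the miR-9 line (3 samples) with Cpa3-Cre (2). The 5 columns per library match no label and were not used, so no depth, counts or levels are given, and the planned tests on them were not run.

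P-values were adjusted by Benjamini-Hochberg over all rows with a p-value (statsmodels 0.14.6, adjusted p under 0.05). Implied standard errors came from scipy 1.17.1, a measure chosen after the data were seen. The adjustment and the arithmetic of the implied standard error were checked on simulated normal values. That check cannot tell whether the deposited p-values are Wald p-values. Hairpin positions and sequences came from RefSeq (GRCm38.p6) and GENCODE M21 and were aligned with Biopython 1.88 and folded with ViennaRNA 2.7.2. Symbols held by several rows (43) were left out of lists, and 2 older symbols were matched through RefSeq.

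The members and lists were chosen with earlier results of these data known. Named were the 4 rows, Drosha, Dgcr8, Xpo5, Dicer1 and Ago2, called, lowest and highest list members, and called and nearest neighbours within 500 kb; others are examples chosen after their values were seen.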

Additional observations from a re-analysis of the deposited data

How the results depend on the processing

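Gm25641 passed, and Gm3764, AI854517 and C130071C03Rik did not, under Benjamini-Yekutieli and Bonferroni adjustment, with missing p-values counted as 1 and at an unadjusted 0.0001; rows of at least 200 bases, which leave out Gm25641, gave the hosts adjusted p-values of 0.522 to 0.965. Over the table, 99 rows passed, against 233 at an adjusted p under 0.10, 24 by Benjamini-Yekutieli and 20 by Bonferroni. The microRNA pathway and regulator lists had 45 genes with a p-value, of which 0 passed the test. An unadjusted p under 0.05 was found for 4 of them (8.89%), where 7.92% of all rows had one. Within 1000 kb of the hairpins 1 neighbour passed, Sema4b, a semaphorin gene 681 kb from Mir9-3, by the authors' deposited table at -1.03 (adjusted p = 0.000519); within 250 kb none did. No paired analysis was possible because values per library were not used; leaving out samples, an abundance filter, other pseudocounts and count-based tools were not run for that reason.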
